A study of Ovis aries with 30 samples.

Results

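The genes for the uncoupling proteins UCP1, UCP2 and UCP3 were followed through brown adipose tissue (BAT) and thyroid of newborn lambs. They are 3 of the 28524 genes in the deposited count table and were taken by their names. Uncoupling proteins are carriers of the inner mitochondrial membrane. UCP1 is made by brown adipocytes and lets protons re-enter the mitochondrial matrix without ATP synthesis, so that the energy of fuel oxidation leaves as heat. Fatty acids released after noradrenergic stimulation activate it. UCP2 is found in many tissues, including cells of the immune system, and UCP3 mainly in skeletal muscle, and neither is known as a principal source of heat in the newborn.

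The lambs were newborn Romney lambs from twin births, with 1 lamb used per ewe. Cold lambs (n = 6) spent 2 days indoors at 4 °C and ambient temperature (AT) lambs (n = 6) spent 2 days indoors at 20 to 22 °C. Control lambs (n = 3) gave their tissues at around 24 h after lambing, before either exposure, so that the controls differ from both exposed groups in age as well as in housing, and the 2 cannot be told apart. The cold against AT comparison is the only one between lambs exposed for the same time. BAT came from around the kidneys. Lambs are called Cold 1 to 6, AT 1 to 6 and Control 1 to 3, and each gave 1 library of each tissue.

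The annotation of the files (Oar_rambouillet_v1.0) places UCP1 at chr17:18691987-18698653 on the plus strand, in 6 exon intervals, between TBC1D9 and ELMOD2. UCP2 and UCP3 are neighbours on the minus strand of chromosome 15. UCP2 spans chr15:56517336-56523911 with 8 exon intervals and UCP3 spans chr15:56544203-56554645 with 7, and 20291 bases separate them. The exon lengths counted were 1590 bases for UCP1, 1629 for UCP2 and 1357 for UCP3. Chromosome numbers were assigned from the RefSeq locations of the other named genes on the same sequences.

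Libraries held 31556500 to 37025998 assigned reads in BAT and 25062784 to 30124871 in thyroid. Counts were divided by size factors from the reference genes ACTB, RPL19 and HUWE1 and are called normalized counts. In BAT 1 pair of unnamed genes took 43.8 to 76.5% of all counts. Control 2 was left out of the fits, since the study removed that lamb for outlying counts, and values with it are given beside the results. Its thyroid library held 4571 reads of the parathyroid hormone gene PTH, the highest count of any library, and its BAT library held the highest summed level of adipocyte genes. The labelled tissues carried their defining genes. ADIPOQ, the adipocyte hormone adiponectin, had 11517 to 94920 counts in BAT and 132 to 5388 in thyroid. TG, the thyroglobulin gene of thyrocytes, had 901630 counts or more in thyroid and 10 to 1160 in BAT. Of the brown adipocyte genes CIDEA led with 393 to 2569 counts in BAT, while ELOVL3 was at 0 in 9 of the 15 BAT libraries and OTOP1 in 14.

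UCP1 in BAT was lower in all 12 exposed lambs than in any control. In the cold lambs UCP1 had 12407, 8841, 8266, 10382, 5401 and 2906.5 normalized counts (Cold 1 to 6). In the AT lambs it had 6765, 12953, 3196, 768, 3720 and 195 (AT 1 to 6). Controls 1 and 3 had 22462 and 20586.5, and Control 2 had 87348, the highest value of all. The exposed lambs did not overlap with the controls, and AT 6 and AT 4 stood lowest. How many of all genes separated in this way is not given here, so the separation is not read as particular to UCP1. The spread was wide among AT lambs, with a 66.5-fold range against 4.27-fold among cold lambs. Group means were 8034 ± 3423 in cold (SD, n = 6), 4599 ± 4718 in AT (SD, n = 6) and 21524 ± 1326 in the controls (SD, n = 2). In whole tissue, fewer brown adipocytes and less UCP1 RNA per brown adipocyte cannot be told apart. The summed level of the 13 brown adipocyte genes in the table, UCP1 not among them, was 4791 to 9191 in the 3 controls, 2816 to 6657 in cold lambs and 1015 to 6753 in AT lambs, lowest in AT 6. That of 10 general adipocyte genes was 96065 to 331637, 47781 to 96108 and 32546 to 131938 in the same order. Fibroblast genes ran the other way, since the sum of 6 of them was 26371 and 27059 in Controls 1 and 3, 43611 in Control 2, 31070 to 103376 in cold lambs and 29749 to 177689 in AT lambs. AT 6, lowest in UCP1, stood apart with the highest of these sums. The part of these cell types in the UCP1 levels was not tested.

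**Figure D1:**
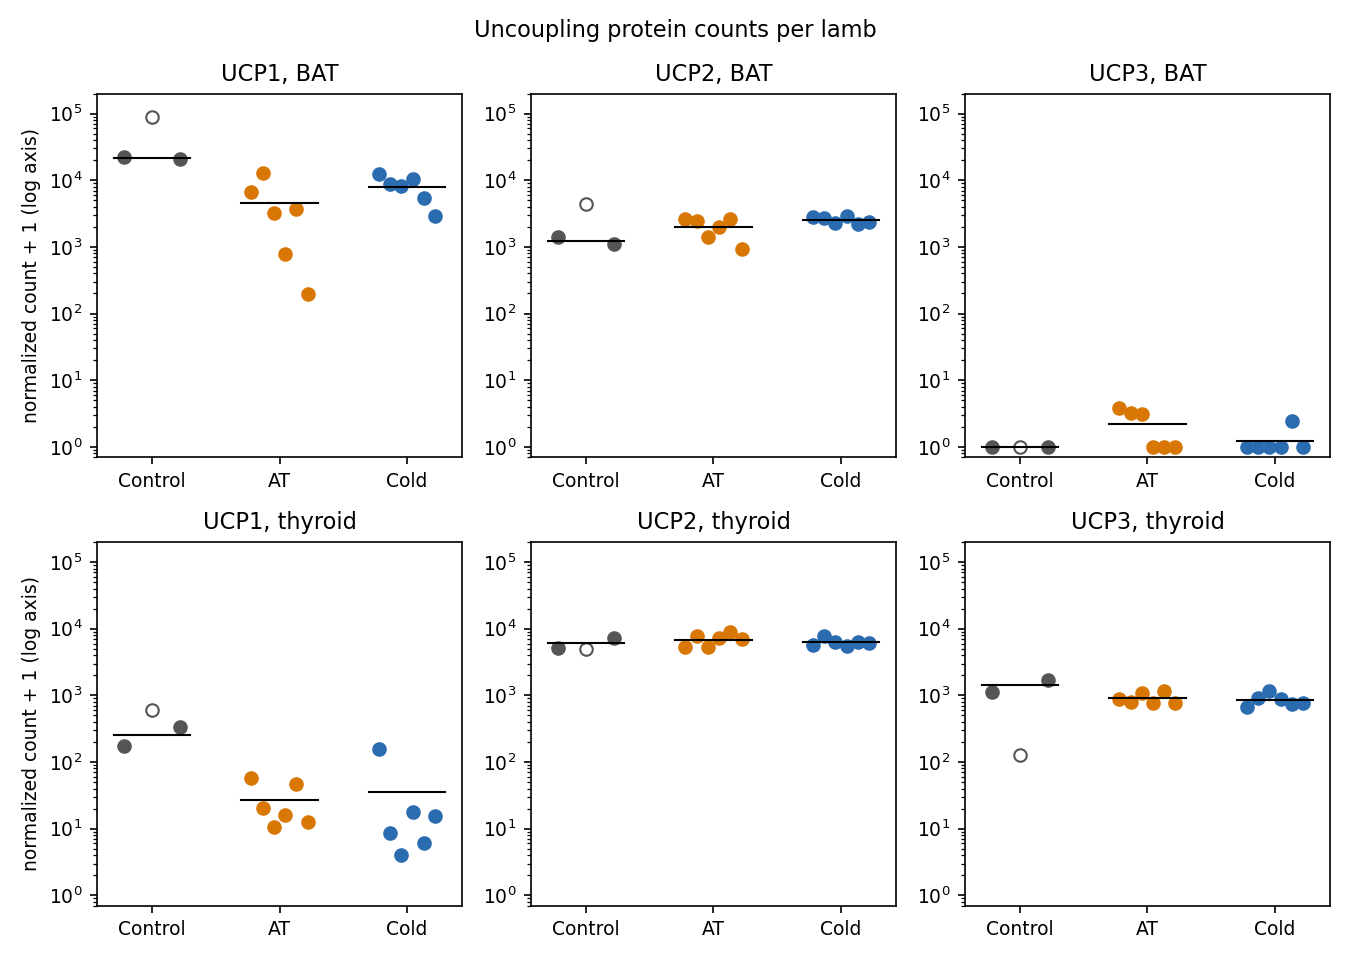
Normalized counts plus 1 (log axis) of UCP1, UCP2 and UCP3 in BAT (top) and thyroid (bottom), 1 point per lamb in accession order within each group. Lines are means, and the open circle is Control 2, which the means leave out. All exposed lambs lie below all controls for UCP1 in both tissues, and UCP3 in BAT never exceeds 3 counts.

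The differences of UCP1 in BAT from 2 controls did not pass the test. The log2 fold change (log2FC) of cold against control was -1.42 (SE 0.90, 95% interval -3.35 to 0.50, adjusted p = 0.432, edgeR), where 1.21% of the 14905 genes tested were called, 0.577% as higher and 0.637% as lower. A call needs a log2FC of at least 1 in size and an adjusted p under 0.05. The log2FC of AT against control was -2.23 (SE 0.88, interval -4.11 to -0.34, adjusted p = 0.127), with 6.07% of genes called, 2.86% as higher and 3.21% as lower. The exact permutation test (2-sided) gave p = 0.0714 for each, with a smallest possible p of 0.0357 over 28 splits. With Control 2 included, AT against control passed at -3.21 (adjusted p = 0.0203) and cold against control was -2.39 (adjusted p = 0.0853), and the exact permutation p was 0.0119 for cold, the smallest that 84 splits can give, and 0.0357 for AT. The fit of AT against control also passed without AT 2, at -2.88 (adjusted p = 0.0424), and without Control 1 or Control 3 when Control 2 took its place (-3.51 and -3.53).

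Between cold and AT lambs, UCP1 in BAT did not differ beyond the spread between lambs. The log2FC was 0.80 (SE 0.68, interval -0.66 to 2.27, adjusted p = 0.636, exact permutation p = 0.119 over 924 splits), against 0.275% of genes called, 0.188% as higher and 0.0872% as lower. This interval holds both lower and higher levels in the cold lambs, so these 12 lambs leave the size of any difference wide. Leaving out each lamb in turn kept the log2FC between 0.53 and 1.46.

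UCP2 in BAT spanned a narrower range than UCP1. The cold lambs had 2794, 2665, 2274, 2877, 2214 and 2361 normalized counts, close to one another. The AT lambs had 2574, 2420, 1417, 1962, 2588 and 926. Controls 1 and 3 had 1387 and 1102, and Control 2 had 4430. The cold lambs lay above Controls 1 and 3 and below Control 2, while the AT lambs overlapped with the controls. Macrophages are among the cells known to carry UCP2, and the summed level of 10 macrophage genes in BAT was 1416 to 10044 in cold lambs, 1804 to 4483 in AT lambs and 1765 to 2801 in the 3 controls. Its part in the UCP2 levels was not tested.

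Against Controls 1 and 3, UCP2 in BAT of cold lambs had a log2FC of 1.02 (SE 0.33, interval 0.32 to 1.72, adjusted p = 0.114) and was not called by edgeR. It passed in DESeq2's Wald test (adjusted p = 0.0301) and in the fit of these groups alone (1.08, adjusted p = 0.0207). The exact permutation p was 0.0357, the smallest that 28 splits can give. The value rested on which controls were used. With all 3 controls it was 0.18 (adjusted p = 0.826), and with Control 2 in place of Control 1 or Control 3 it turned to -0.07 or -0.14. AT against control was 0.67 (SE 0.32, adjusted p = 0.201) with 2 controls and -0.18 (adjusted p = 0.793) with 3. Cold against AT was 0.35 (SE 0.22, interval -0.11 to 0.82, adjusted p = 0.519).

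The ratio of UCP1 to UCP2 within a library does not depend on the size factor, nor on how many reads the unnamed pair took. It was computed per kilobase of exon and chosen after the values were seen. In BAT it was 16.6, 20.2 and 19.1 in Controls 1, 2 and 3, so Control 2 did not stand apart on this scale. Cold lambs had ratios from 1.26 to 4.55 (mean 3.19 ± 1.15, SD, n = 6) and AT lambs from 0.215 to 5.48 (mean 2.10 ± 1.93, SD, n = 6). Neither exposed group overlapped with the controls, and in AT 4 and AT 6 UCP2 exceeded UCP1. How many pairs of genes separated in this way is not given here. Neither the separation nor the p below is therefore read as particular to this ratio. The log2 difference from 3 controls was -2.65 in cold (exact permutation p = 0.0119) and -3.86 in AT (exact permutation p = 0.0238), with a smallest possible p of 0.0119 over 84 splits. With Controls 1 and 3 alone it was -2.59 (exact permutation p = 0.0357, the smallest of 28 splits) and -3.80 (exact permutation p = 0.0714). Cold and AT differed by 1.21 (exact permutation p = 0.171).

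**Figure D2:**
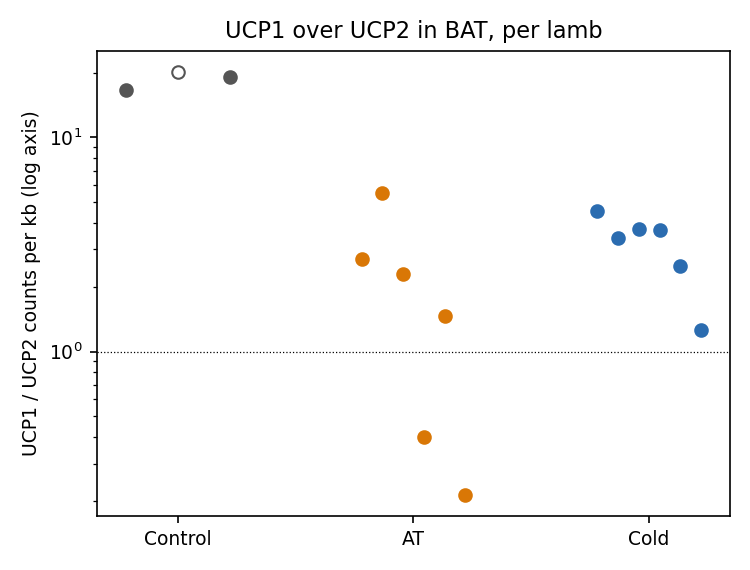
UCP1 over UCP2 counts per kilobase in BAT (log axis), 1 point per lamb, with Control 2 as the open circle and a dotted line at a ratio of 1. The 3 controls lie between 16.6 and 20.2, above the highest exposed lamb at 5.48.

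UCP3 was at the limit of detection in BAT. It had no read in 11 of the 15 BAT libraries and 2 or 3 reads in AT 1, AT 2, AT 3 and Cold 5. UCP2, its neighbour on the same strand, had 1037 to 3923 reads in those libraries, so few if any of the UCP2 reads were assigned to UCP3. A count of 0 allows up to 3 reads by counting error alone. UCP3 did not pass the filter on low counts in BAT, so no fold change between the groups was computed there and differences below this level were not detectable at this depth.

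The order of the family differed between the tissues. UCP2 led per kilobase in every thyroid library. It exceeded UCP3 by 3.5 to 8.1 times in the 14 libraries other than Control 2, and UCP3 exceeded UCP1 by 4.9 to 453 times in them. In Control 2 UCP2 exceeded UCP3 by 32.5 times and UCP3 was below UCP1, with a ratio of 0.248. In BAT UCP1 led UCP2 in 13 of 15 libraries, and UCP3 came last. Ranked per kilobase among all genes of a library, UCP1 in BAT held places 18 to 75 in the controls, 140 to 357 in cold lambs and 130 to 5539 in AT lambs. UCP2 held places 420 to 1315 in BAT and 217 to 634 in thyroid.

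UCP1 was present at low counts in thyroid and was again lower in all 12 exposed lambs than in any control. The cold lambs had 157, 7.5, 3.0, 16.7, 5.1 and 14.6 normalized counts, and the AT lambs had 56.1, 19.2, 9.4, 15.2, 45.9 and 11.5. Control 1 had 172, Control 3 had 340 and Control 2 had 598. No exposed lamb overlapped with a control, although Cold 1 came close. For thyroid too, the share of all genes that separated in this way is not given here. The log2FC of AT against control was -3.26 (SE 1.07, interval -5.56 to -0.97, adjusted p = 0.0445), which passed, where 7.8% of the 16122 genes tested were called, 1.82% as higher and 5.98% as lower. Cold against control was -2.90 (SE 1.06, interval -5.19 to -0.61, adjusted p = 0.0707) and did not pass, where 8.04% of genes were called, 1.89% as higher and 6.15% as lower. UCP1 met the filter on low counts in thyroid with exactly 10 of the 14 libraries, Controls 1 and 3 among them. It was thus tested only through the controls, where it was high, and the p of its thyroid fits is not read as support. The exact permutation p was 0.0357 for both, the smallest that 28 splits can give.

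These thyroid calls of UCP1 changed with the setting. AT against control was -2.85 (adjusted p = 0.114) under TMM scaling, -2.86 (adjusted p = 0.114) under median-of-ratios scaling and -3.10 (adjusted p = 0.0512) without AT 3, and DESeq2 gave no adjusted p. Cold against control passed with all 3 controls at -3.43 (adjusted p = 0.0244). Cold against AT was 0.36 (SE 0.86, interval -1.48 to 2.21, adjusted p = 0.974), in a comparison in which edgeR called 0 of 16122 genes, DESeq2 called 2, and 870 had an unadjusted p under 0.05 in edgeR.

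Adipocyte genes in the thyroid libraries did not all run one way beside UCP1. ADIPOQ had 143, 979 and 296 normalized counts in the thyroid of Controls 1, 2 and 3, 366 to 2756 in cold lambs with Cold 1 highest, and 289 to 4775 in AT lambs with AT 6 highest. The summed level of the 10 adipocyte genes was 6858, 14102 and 11022 in Controls 1, 2 and 3, 4207 to 11685 in cold lambs, again with Cold 1 highest, and 3763 to 16226 in AT lambs. By the sum Control 2, Control 3 and Cold 1, which were high in UCP1, were thus among the higher libraries, while by ADIPOQ Controls 1 and 3 were among the lower. The sum did not follow UCP1 throughout. AT 6 and AT 3 had sums of 16226 and 13905 with UCP1 at 11.5 and 9.4, and Control 1, with UCP1 at 172, had 6858. UCP1 reads per ADIPOQ read were 1.20, 0.61 and 1.15 in the thyroid of Controls 1, 2 and 3 and 1.27, 0.43 and 0.69 in their BAT. In the exposed lambs the UCP1 reads per ADIPOQ read were 0.0024 to 0.067 in thyroid and 0.018 to 0.604 in BAT. UCP1 over the summed level of the 10 adipocyte genes was 0.025, 0.042 and 0.031 in thyroid of Controls 1, 2 and 3. In their BAT this ratio was 0.234, 0.263 and 0.206. In exposed lambs it was 0.00068 to 0.0135 in thyroid and 0.0060 to 0.185 in BAT. Per CIDEA read UCP1 had 5.10, 1.35 and 6.95 in thyroid of these controls, against 10.5, 103 and 17.1 in BAT. The summed level of the brown adipocyte list in thyroid was 3947 to 12964 in the controls, 2141 to 2946 in cold lambs and 2297 to 5396 in AT lambs. PPARGC1A and CPT1B led this list in thyroid, with means of 1600 and 1023 normalized counts, where CIDEA had a mean of 89.0. These means include Control 2, whose sum was the highest, and PPARGC1A ran from 549 to 7061 reads. CIDEA did not separate the groups there. It had 33.7, 444 and 48.9 in Controls 1, 2 and 3, 23.1 to 111 in cold lambs and 39.5 to 196 in AT lambs. The summed levels of genes of 2 other cell types also separated the controls from the exposed lambs in thyroid without overlap. The summed level of 6 fibroblast genes was 11849 to 23283 in the 3 controls and at least 28745 in exposed lambs, and that of 10 macrophage genes was 1877 to 2617 and at least 3173. C1QC and C1QA had the highest means of the macrophage list, at 2097 and 824. CD68 of that list did not separate the groups, at 641, 783 and 615 in Controls 1, 2 and 3 and 364 to 877 in exposed lambs. The part of these cell types in the UCP1 levels of thyroid was not tested.

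No difference of UCP2 between groups was found in thyroid. Cold lambs had 5428 to 7757 normalized counts with a mean of 6268 ± 821 (SD, n = 6), and AT lambs had 5264 to 8780 with a mean of 6885 ± 1377 (SD, n = 6). The controls had 5067 (Control 1), 4934 (Control 2) and 7269 (Control 3). All groups overlapped. Here the log2FC was 0.02 for cold against control (interval -0.42 to 0.47, adjusted p = 0.950), 0.16 for AT against control (interval -0.29 to 0.61, adjusted p = 0.615) and -0.14 for cold against AT (interval -0.45 to 0.18, adjusted p = 0.936). Each of these intervals lies within 1 on the log2 scale of 0. Under TMM scaling the values were 0.34, 0.51 and -0.17, and none passed.

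UCP3 in thyroid had 748 to 1300 reads in all libraries but Control 2. The cold lambs had 661, 914, 1165, 874, 746 and 776 normalized counts, and the AT lambs had 886, 802, 1075, 767, 1164 and 776. Control 1 had 1114 and Control 3 had 1720, while Control 2 had 127 from 80 reads. Control 3 stood above all exposed lambs, Control 1 lay within their range and Control 2 far below it. Against Controls 1 and 3 the log2FC was -0.73 in cold lambs (SE 0.22, interval -1.21 to -0.25, adjusted p = 0.0360) and -0.64 in AT lambs (SE 0.23, interval -1.12 to -0.16, adjusted p = 0.0568). Neither reached a log2FC of 1, so neither was called. With all 3 controls the values were -0.21 (adjusted p = 0.793) and -0.11 (adjusted p = 0.895), and with Control 2 in place of Control 3 they turned to 0.46 and 0.55. Cold against AT was -0.09 (SE 0.16, interval -0.44 to 0.26, adjusted p = 0.963).

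**Figure D3:**
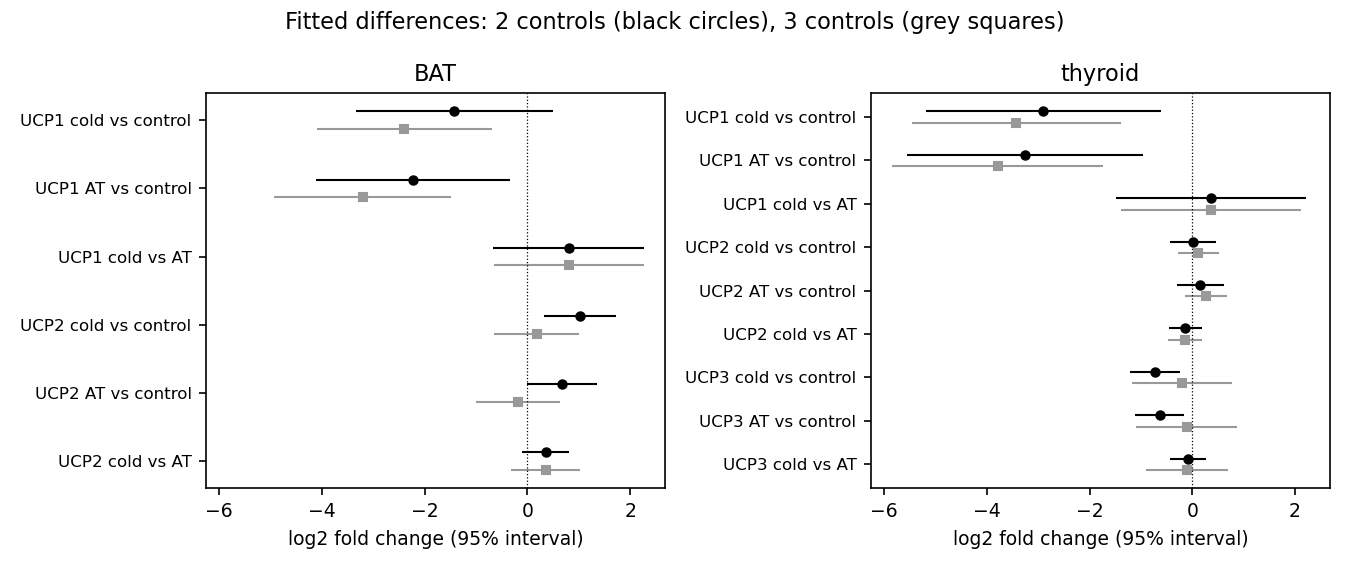
Fitted log2FC with 95% intervals for each member that passed the filter, in BAT (left) and thyroid (right). Black circles use Controls 1 and 3 and grey squares use all 3 controls. The cold against AT intervals all include 0.

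Skeletal muscle genes were measured beside UCP3, since UCP3 is known mainly from skeletal muscle. Their summed level over 13 genes in the table ran from 280 to 4115430 normalized counts in thyroid, with AT 3 highest and Control 1 second at 367535. UCP3 in AT 3 was 1075, within the range of the other AT lambs. Control 3, with the highest UCP3, had a muscle sum of 282, no read of CKM, the muscle creatine kinase, and 7 reads of ACTA1, skeletal muscle actin. In the 9 thyroid libraries with at most 10 CKM reads, UCP3 ran from 661 to 1720. In BAT, where UCP3 was near 0, the muscle sum was 363 to 964. Without the thyroid libraries of AT 3 and Control 1 and with Control 2 put back, cold against control of UCP1 in thyroid was -3.77 (adjusted p = 0.0168). Control 2 in place of Control 1 alone, with AT 3 kept, also gave -3.77. The part of muscle-rich libraries in this value was not tested.

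**Figure D4:**
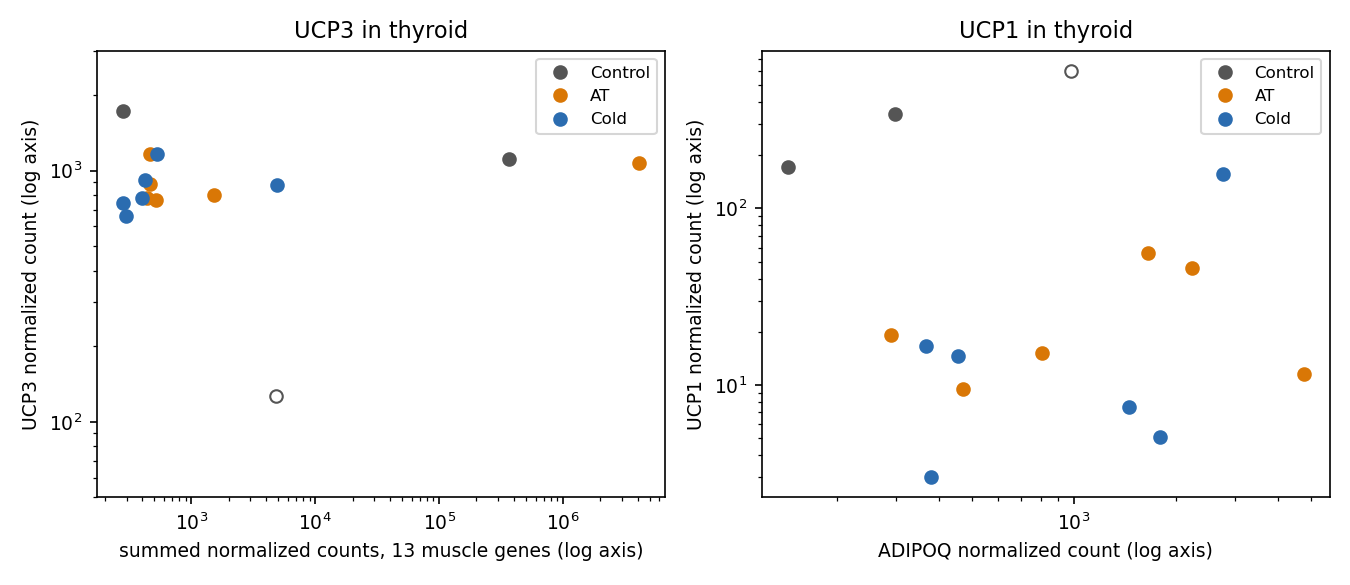
Left, UCP3 against the summed normalized counts of 13 skeletal muscle genes in thyroid. Right, UCP1 against ADIPOQ in thyroid. All axes are logarithmic, each point is a lamb, and the open circle is Control 2. UCP3 of AT 3, the point at 4115430 on the muscle axis, lies within the range of the other libraries.

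Both tissues of each lamb were compared in 1 fit on a common scale. The intervals and p of this fit, here and for UCP2 below, do not use the pairing by lamb, while the sign-flip permutation does. UCP1 was higher in BAT than in thyroid in all 15 lambs. Its log2FC was 9.23 in cold lambs (interval 6.94 to 11.51, adjusted p = 1.34e-07), 8.79 in AT lambs (interval 6.53 to 11.04, adjusted p = 2.45e-07) and 7.73 in Controls 1 and 3 (interval 4.04 to 11.43, adjusted p = 0.00147), where 39.9%, 39.7% and 30.6% of 17021 genes were called. In the same order, 26.6%, 26.8% and 16.5% were called as higher in BAT and 13.3%, 12.9% and 14.1% as lower. The exact sign-flip permutation over lambs gave p = 0.03125 for cold and for AT, the smallest that 6 pairs allow. UCP3 was higher in thyroid in all lambs. Taking 3 reads per library as the floor in BAT, it was at least 61.3-fold higher in cold lambs and 72.5-fold in AT lambs. In Controls 1 and 3 it was at least 140-fold higher (62.2-fold in all 3 controls). UCP3 passed the filter of this fit only through its thyroid reads. The p of the fit (largest adjusted p = 9.77e-10, edgeR) is therefore not read as support for the difference, nor is it a p of the bound. The bound for the controls, -7.13 on the log2 scale of BAT against thyroid, was -5.26 with Control 2 in place of Control 3 and -5.90 with it in place of Control 1.

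UCP2 differed least between the tissues. The log2FC of BAT against thyroid was 0.07 in cold lambs (interval -0.32 to 0.45), with 3 of 6 lambs higher in BAT. It was -0.41 in AT lambs (interval -0.80 to -0.03, adjusted p = 0.0575), with 1 of 6 higher in BAT. It was -0.97 in Controls 1 and 3 (interval -1.64 to -0.30, adjusted p = 0.0218), just short of a log2FC of 1, and both lambs were lower in BAT. Control 2 was higher in BAT, and the value with all 3 controls was -0.01 (adjusted p = 0.984). Whether a change between groups differed by tissue was tested as an interaction. For UCP2 the interaction was 1.04 for cold against control (adjusted p = 0.271), 0.56 for AT against control (adjusted p = 0.450) and 0.48 for cold against AT (adjusted p = 0.702). For UCP1 it was 1.49, 1.05 and 0.44 in the same order, and none passed, where 0.188%, 1.62% and 0% of genes were called. In the first, 0.165% were called as higher and 0.0235% as lower, and in the second 1.46% and 0.153%. Of these 6 interactions only that of UCP2 in cold against control had an unadjusted p under 0.05, and it turned to -0.08 or -0.47 with Control 2 in place of Control 1 or Control 3. The cold against AT interaction had 1339 genes at an unadjusted p under 0.05 with edgeR, and DESeq2 called 25.

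**Figure D5:**
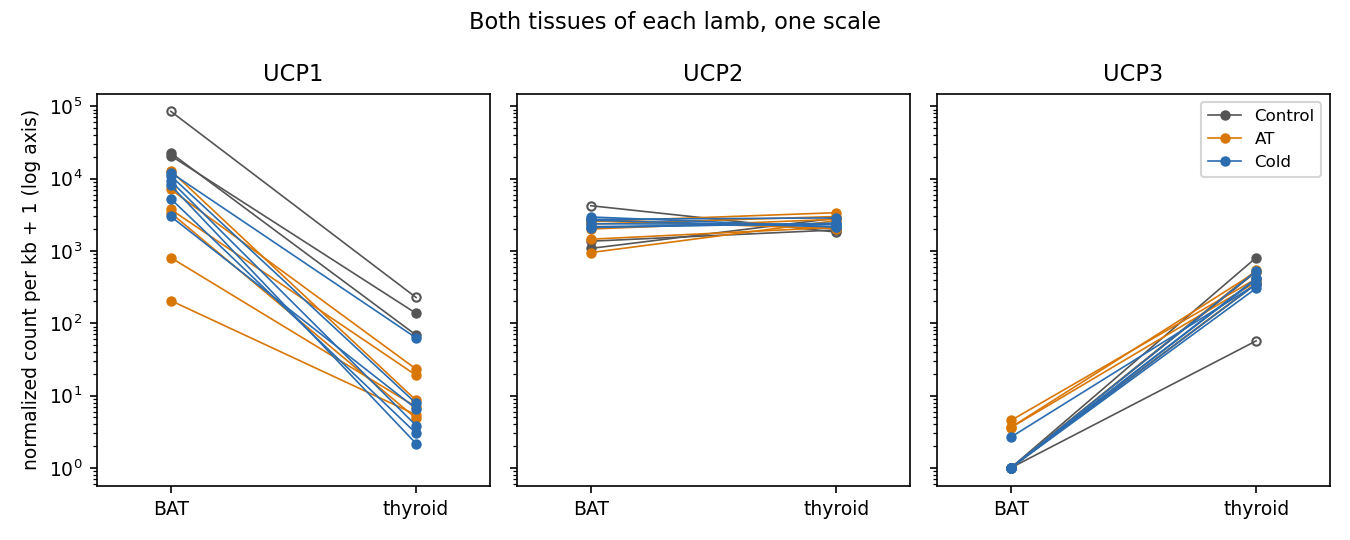
Normalized counts per kilobase plus 1 (log axis) in BAT and thyroid on 1 scale, with a line joining the tissues of each lamb and Control 2 as open circles. All lines fall from BAT to thyroid for UCP1 and rise for UCP3, while UCP2 is higher in BAT in 3 of 6 cold lambs.

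UCP1 and UCP2 varied together in BAT of the 12 exposed lambs. Pearson's r of their log2 normalized counts was 0.84 (permutation p = 0.00594, adjusted p = 0.0356 over 6 relations) and Spearman's rho was 0.74 (adjusted p = 0.0488). Without the 2 lambs farthest from the median of UCP1, r was 0.57, within cold lambs it was 0.67 and within AT lambs 0.80. Both measures share a library and a size factor. Under TMM scaling r was 0.86, rho had an adjusted p of 0.194 and r within cold lambs was 0.30, and with Controls 1 and 3 added r fell to 0.35 (adjusted p = 0.424). The other 5 relations, among members in thyroid and between tissues for UCP1 and for UCP2, had r between -0.32 and 0.18 with adjusted p of 0.847 or more. The planned relations with UCP3 in BAT could not be computed.

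The genes whose levels ran most like UCP1 over the 14 BAT libraries were CA2 (r = 0.91), SNRNP27 (0.90), KLHDC7A (0.90), DIO2 (0.90) and GK (0.90), where the 99th percentile of 12409 genes was 0.73. CA2 is a carbonic anhydrase, DIO2 converts thyroxine to the active hormone and GK is glycerol kinase. Those most like UCP2 in BAT were S100B (0.86), ADORA1, the adenosine A1 receptor (0.85), ISCU (0.83), SOX6 (0.83) and FHIT (0.80). In thyroid, UCP1 ran most like CD40 (0.88), DAXX (0.88), TRAPPC11 (0.88), CX3CL1 (0.86) and RALGDS (0.83). UCP2 in thyroid ran most like SLC4A9 (0.86), NRBP2 (0.84), DOCK3 (0.83), KCND1 (0.83) and ATXN7L1 (0.82), and UCP3 most like GTF2H4 (0.90), SERINC2 (0.89), WIPI1 (0.88), TRUB2 (0.88) and SHBG (0.88). These correlations describe 14 libraries that share a tissue and a scaling, and they pool the controls with the exposed lambs. Over the 12 exposed lambs alone r was 0.87 to 0.90 for the genes named with UCP1 in BAT and 0.70 to 0.87 for those named with UCP2. In thyroid it was 0.68 to 0.79 for those named with UCP1, 0.78 to 0.89 with UCP2 and 0.71 to 0.78 with UCP3. With TMM scaling CA2 was at place 7 and SNRNP27 at place 33 for UCP1 in BAT, and GTF2H4 at place 25 for UCP3 in thyroid.

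Few genes around the uncoupling proteins passed the test in BAT. Over all 14905 genes there, 1.21% were called in cold and 6.07% in AT lambs against controls, and 18.1% and 26% had an unadjusted p under 0.05, which are the shares to read the counts of each list against. Of 15 related mitochondrial carriers tested, 0 were called in cold or AT lambs against controls, with 1 and 3 at an unadjusted p under 0.05 and 0 called by DESeq2. SLC25A14, SLC25A27 and SLC25A30, the carriers named as further uncoupling proteins or their kin, had log2FC of 0.35, -0.23 and 0.12 in cold lambs and 0.89, 0.11 and 0.07 in AT lambs. Of 21 activators of UCP1 transcription edgeR called 0 in either comparison, with 4 and 3 at an unadjusted p under 0.05. PPARGC1A, a coactivator induced by adrenergic signals, was at -0.52 in cold lambs (adjusted p = 0.640) and -1.30 in AT lambs (adjusted p = 0.117), and PRDM16, a determinant of brown adipocyte identity, was at 0.97 and 1.16 (adjusted p = 0.225 and 0.0965). DESeq2 called PRDM16 in AT lambs (adjusted p = 0.0413). The median log2FC of the activators was -0.08 in cold and 0.03 in AT lambs, beside -0.10 and -0.03 over all genes. Of 9 repressors 0 were called, with 1 and 3 at an unadjusted p under 0.05 and 0 called by DESeq2, at medians of 0.00 and -0.19.

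The genes that carry the adrenergic signal to the fat stores, and the fatty acid responsive genes, gave 3 calls in BAT, all in AT lambs. PDE4B, which degrades cyclic AMP, rose by 1.32 on the log2 scale (SE 0.33, adjusted p = 0.0229). Of the fatty acid responsive genes CPT1A, the gate of fatty acids into mitochondria, fell by 1.59 (SE 0.30, adjusted p = 0.00731) and FABP3, a fatty acid binding protein, fell by 2.01 (SE 0.48, adjusted p = 0.0194). These were 1 of 20 and 2 of 15 genes tested, where 2.86% of all genes were called as higher and 3.21% as lower, so that counts this small do not set either list apart, and all 3 were called under TMM scaling and with 3 controls too. In cold lambs edgeR called 0 of 20 and 0 of 15, with 2 and 3 at an unadjusted p under 0.05, while DESeq2 called 1, FABP3 (-1.74, adjusted p = 0.0224). The medians in cold lambs were -0.28 and -0.37, beside -0.10 over all genes. ADRB3, the receptor through which noradrenaline acts on brown adipocytes, was at -1.24 in cold lambs (adjusted p = 0.273) and -0.87 in AT lambs (adjusted p = 0.365), and DIO2 at -0.83 and -1.12 (adjusted p = 0.720 and 0.522). Between cold and AT lambs edgeR called none of the 5 lists' genes in either tissue, and neither did DESeq2. At an unadjusted p under 0.05 there were 2 carriers, 1 activator, 4 repressors, 4 adrenergic and 5 fatty acid responsive genes in BAT, and 1, 2, 1, 1 and 1 in thyroid, where 12.3% of all genes in BAT and 5.4% in thyroid had such a p.

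In thyroid the same lists held more calls, on a background that also moved. Of all genes 8.04% were called in cold lambs and 7.8% in AT lambs, 6.15% and 5.98% as lower. The median of all 16122 genes was -0.28 in both exposed groups against controls, and TMM scaling raised it by 0.30. Of 15 fatty acid responsive genes 4 fell in cold lambs and 3 in AT lambs, with medians of -0.89 and -0.58. FABP3 fell by 2.20 and 2.29 (adjusted p = 0.00127 and 0.000874), SLC25A20, the carnitine carrier also listed among the mitochondrial carriers, by 1.83 and 1.62 (adjusted p = 0.00810 and 0.0124) and PLIN2, a lipid droplet coat protein, by 1.35 and 1.71 (adjusted p = 0.0208 and 0.00583). PDK4, which restrains glucose oxidation, fell by 2.40 in cold lambs (adjusted p = 0.0428). Of 21 activators of UCP1 transcription 3 fell in each group, which were PPARGC1A (by 1.23 and 1.20), ESRRA (by 1.36 and 1.07) and CEBPB (by 1.09 and 1.16). Of the repressors ZFPM2 rose by 1.01 and 1.10 (adjusted p = 0.0391 and 0.0268), and of the adrenergic list ADCY3, an adenylyl cyclase, fell by 1.21 and 1.22. Under TMM scaling ESRRA kept its call in cold lambs, at -1.03 (adjusted p = 0.0389), and PPARGC1A, CEBPB, ADCY3 and PDK4 were not called in either group. FABP3, SLC25A20 and ZFPM2 were called in both groups under TMM scaling, and PLIN2 in AT lambs. With all 3 controls ADCY3 and CEBPB lost their calls in both groups (-0.80 and -0.83 in cold lambs, adjusted p = 0.187 and 0.0740) and ESRRA lost its call in AT lambs (-0.73, adjusted p = 0.145). PPARGC1A was then at -2.69 and -2.65, and 8 genes gained a call in cold lambs, in AT lambs or in both, which were ADRA1A, DIO2, PNPLA2, IRF4, ACADVL and ACSL1 as lower and G0S2 and SLC25A27 as higher. These gains with 3 controls rest on 1 added library, the thyroid of Control 2. The share of all thyroid genes called with 3 controls is not given here, so the gains are not read as particular to these genes. SLC25A27 had 0.75 and 0.93 in cold and AT lambs (adjusted p = 0.125 and 0.0622), and under TMM scaling it was called in AT lambs at 1.24 (adjusted p = 0.0407), and with all 3 controls too (adjusted p = 0.0292). Under TMM scaling so was TWIST1 of the repressors at 1.07 (adjusted p = 0.0117).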

How the data were processed

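RNA of 15 lambs was sequenced in BAT and thyroid as 150-base pairs (BGISEQ-500). Per the paper and the labels, the authors checked reads with FastQC 0.11.9, trimmed them with Trimmomatic 0.39, aligned them with STAR 2.7.7a to Oar_rambouillet_v1.0 and counted them with featureCounts (Subread 2.0.0), multimapping reads included. The strand setting is not given in the sources used here. The deposited values are raw counts per gene, unfiltered and not normalized. No other column held samples.

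From these counts, size factors were computed from ACTB, RPL19 and HUWE1 (DESeq2 1.42.0 estimator), as in the study. Genes reaching 10 reads in 10 or more libraries were fitted in each tissue with edgeR 4.0.16 (R 4.3.3, quasi-likelihood test, 2-sided, Benjamini-Hochberg over all genes), the 3 groups together, and both tissues in 1 joint fit. Controls 1 and 3 were used. Control 2 was identified as the library the study left out by matching normalized values in its supplement with the counts. Single genes also got exact permutation tests of log2(normalized count + 1). The fold change of UCP3 between tissues is a bound at 3 reads per library, with the p of the fit. Alternatives were TMM and median-of-ratios scaling, DESeq2, all 3 controls, only the groups compared, no filter, filterByExpr, RNA integrity as a covariate, a lamb block, each lamb left out in turn, and, added after seeing the data, the thyroid without 2 libraries rich in muscle genes. The script was tested on simulated data.

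The genes named are the 3 members, the reference genes, up to 3 called genes per list, direction and comparison, the 5 genes most like each member, the markers of the cell types a sentence concerns, and others chosen after their values were seen (SLC25A14, SLC25A27, SLC25A30, PRDM16, ADRB3, TWIST1, 8 genes called in thyroid with 3 controls, PPARGC1A and DIO2 in BAT and PLIN2 in the cold thyroid). The members and lists were chosen with earlier results of these data known. Tissues are paired by lamb: over 14 pairs and 14403 genes the deviations from group means correlated at a median r of 0.22 (-0.003 to 0.37), above 0.1 in 13. Reads carried no molecular identifiers, so floors cover counting error only.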

Additional observations from a re-analysis of the deposited data

Results flagged for a closer look

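UCP1 in the thyroid of Cold 1 stood far from the other cold lambs, at 157 normalized counts (178 reads) where the next highest had 16.7. The gap to the next lamb was 0.911 of the range of the group. This test was made in 10 sets of group, gene and tissue, on normalized counts without a log. Chance marks about 1 in 20 of such sets only where values are normally distributed, so the rate for these counts is not known. The thyroid of Cold 1 also had the most ADIPOQ among cold lambs, with 3121 reads against 373 to 2120, and its UCP1 in BAT was the highest of the cold lambs at 12407. Leaving this lamb out removed UCP1 from the genes tested in thyroid, since exactly 10 of the 14 libraries had 10 or more reads, so the thyroid fold change without it is not given. In the joint fit without Cold 1, the BAT against thyroid log2FC of UCP1 in cold lambs was 10.9, against 9.23 with it.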

How the results depend on the processing

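Of 234 refits of the 30 tests on the members, 219 had the same direction and side of the threshold, as did 376 of 396 fits that left out 1 lamb. With all 3 controls, AT against control of UCP2 in BAT was -0.18 and its tissue interaction -0.38, both opposite in sign, and UCP1 passed in AT BAT (-3.21) and cold thyroid (-3.43). UCP1 in cold thyroid also passed with RNA integrity as a covariate (-4.14) and, in a fit chosen after seeing the data, without the 2 libraries highest in muscle genes and with Control 2 put back (-3.77). Control 2 in place of Control 1 alone also gave -3.77. UCP1 in AT thyroid did not pass with TMM (-2.85) or median-of-ratios scaling (-2.86), no filter (-3.27, adjusted p = 0.0739) or filterByExpr (-3.27, adjusted p = 0.0522). UCP2 in cold BAT passed with DESeq2 (1.02) and with only 2 groups (1.08). UCP2 in BAT against thyroid was -0.15 with TMM and -0.29 with median-of-ratios scaling in cold lambs, and passed at -1.06 with the latter in controls. With TMM the correlations of UCP2 with UCP1 in thyroid and of UCP2 between tissues were 0.071 and 0.028. With controls included, UCP1 with UCP2 in BAT was 0.35 (adjusted p = 0.424), UCP1 with UCP3 in thyroid 0.36 and UCP2 between tissues 0.016. The causes were not tested.

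Leaving out 1 lamb, with Control 2 replacing a control, UCP2 in BAT ran from -0.14 to 1.08 (cold against control) and -0.49 to 0.80 (AT against control), and UCP2 in thyroid from -0.044 to 0.32 (cold against control). UCP3 in thyroid ran from -0.83 to 0.46 and -0.70 to 0.55. UCP1 ran from -2.72 to -1.23 in cold BAT and -3.53 to -1.96 in AT BAT, its interactions from 0.76 to 3.20, 0.33 to 1.33 and 0.16 to 2.14, and in the 6 thyroid fits that kept it in the filter from -3.77 to -2.66 in cold and -4.13 to -3.10 in AT. UCP2 in BAT against thyroid ran from -0.027 to 0.11 in cold lambs and -0.98 to 0.54 in controls, and its interactions from -0.47 to 1.10 and -0.92 to 0.68. Without Control 1 or Control 3 respectively, the reversed values of UCP2 were -0.07 and -0.14 (cold BAT), -0.42 and -0.49 (AT BAT), 0.15 and 0.54 (tissues, controls), -0.08 and -0.47, and -0.53 and -0.92 (interactions).

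The lamb block gave BAT against thyroid log2FC of UCP1 of 10.19, 8.22 and 7.81 in cold, AT and control lambs and of UCP2 of 0.06, -0.47 and -0.95, and the block changed no call of the members. It called 1 gene in the cold against AT interaction. Genes called in cold against control BAT numbered 181, but 318 with TMM (227 higher, 91 lower, against 86 and 95), 324 with median-of-ratios scaling, 628 with DESeq2, 727 with all 3 controls and 340 with only 2 groups, and 99 to 981 with a lamb left out. AT against control BAT had 904, but 488 with only 2 groups, and 649 higher and 366 lower with TMM against 426 and 478. Cold against AT BAT had 41, but 145 with DESeq2, 0 with all 3 controls, 24 with only 2 groups and 18 with RNA integrity. In thyroid, cold against control had 1296 (305 higher, 991 lower), but 792 with TMM (456, 336) and 789 with median-of-ratios scaling. AT against control had 1258 (294, 964), but 744 (474, 270) and 739, and 713 with only 2 groups. Interactions numbered 32, 275 and 0 against 187, 646 and 25 with DESeq2, 92 and 749 with all 3 controls, 15 and 179 with no filter, 21 in the first with filterByExpr, and 6 in the last with TMM and with median-of-ratios scaling. The alternatives for UCP3 in BAT were not run and no fold change was computed, since all groups were at or under the floor of 3 reads.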
